A study of Rattus norvegicus with 12 samples.

Results

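Of the 641 mature rat miRNAs listed for these aortas, 9 rows came from 5 hairpins at imprinted loci outside the Dlk1-Dio3 region: miR-335 (Mest), miR-483 (Igf2), miR-675 (H19), and miR-296 and miR-298 (Gnas region). They were chosen by name, with all listed arms and low rows kept. Small RNA had been sequenced from aortas of female spontaneously hypertensive rats (SHR, inbred rats in which blood pressure climbs with age), 6 libraries labelled saline (control) and 6 labelled EWH. EWH is not spelled out in the labels, peptides from egg white are named in the title of the series, and the labels state no age, dose or duration. The comparison asks which aortic miRNAs differ between the EWH and the saline group. Separate animals are not stated for the samples, so a p-value here weighs a difference against the spread of these samples alone, and that spread may be technical.

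Imprinted genes are read mainly from the copy inherited from one parent, and many of them act on growth of the fetus and placenta. Mest and Igf2 are expressed from the paternal copy and H19 from the maternal one, and each carries a miRNA hairpin within its own transcript. The hairpins of miR-296 and miR-298 lie on a paternally expressed transcript that runs antisense at the Gnas locus. A hairpin is cut into a 5p and a 3p arm, of which one is usually kept as the guide that recognises targets through its seed, bases 2 to 8.

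The mature sequences show which RNAs were counted and how far the 2 arms of each hairpin differ. RefSeq's table for the assembly GRCr8 held 8 of the 9 rows, all on the minus strand, with miR-675 and miR-483 on chromosome 1 and miR-296 and miR-298 on chromosome 3. They are printed 5′ to 3′ with the seed in capitals.
miR-298-5p: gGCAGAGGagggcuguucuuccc
miR-298-3p: aGGAACUAgccuucucucugcu
miR-296-5p: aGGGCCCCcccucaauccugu
miR-296-3p: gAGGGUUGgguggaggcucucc
miR-483-5p: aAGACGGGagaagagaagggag
miR-483-3p: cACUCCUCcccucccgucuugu
miR-675-5p: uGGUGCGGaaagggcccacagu
miR-675-3p: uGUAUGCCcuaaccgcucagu
The 8 had no seed in common, and none of the 581 listed miRNAs with a RefSeq sequence shared a seed with them. All 8 were richer in G and C than the median of those 581, at 50.0% (miR-298-3p) to 68.2% (miR-296-3p) against 47.8%. In RefSeq's gene order the miR-483 hairpin lies within Igf2 and the miR-675 hairpin within H19, whose neighbour is Igf2. The miR-296 and miR-298 hairpins are next to each other, followed by Gnas. None of the 4 overlaps another miRNA hairpin there.

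The position of the counted arms is shown for the neighbouring Gnas-region pair, with both mature arms in capitals and the rest of the hairpin in lower case.
Mir298: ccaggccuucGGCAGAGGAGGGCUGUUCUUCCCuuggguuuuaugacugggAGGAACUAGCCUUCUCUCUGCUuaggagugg
Mir296: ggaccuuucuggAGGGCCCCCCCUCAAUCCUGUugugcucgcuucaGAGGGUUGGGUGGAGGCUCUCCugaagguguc

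These miRNAs were scarce in the aorta. Values are in reads-per-million (rpm) units, on totals of 23887799 to 24772944 reads per library, so 1 read was worth 0.0404 to 0.0419 rpm and 3 reads, taken as the limit that a count of 0 allows, 0.121 to 0.126 rpm. The 9 rows together held 55 reads (control 1) to 278 reads (EWH 4) in a library. MiR-335 was first at a mean of 3.02 rpm over the 12 libraries, rank 254 of 641, and miR-298-5p was next at 1.17 rpm, rank 310. The other 7 averaged under 1 rpm, from 0.267 rpm for miR-296-3p through 0.182 rpm for miR-483-3p, 0.137 rpm for miR-483-5p, 0.117 rpm for miR-296-5p and 0.093 rpm for miR-298-3p to 0.010 and 0.0068 rpm for the 3p and 5p arms of miR-675.

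The upper part of that order held in nearly every library. MiR-335 had more reads than miR-298-5p in 12 of 12 libraries, miR-298-5p more than miR-296-3p in 11, and miR-296-3p more than miR-483-3p in 10. The next 3 pairs of neighbours did not keep their order from library to library. MiR-483-3p exceeded miR-483-5p in 7 of 12 libraries, miR-483-5p exceeded miR-296-5p in 5 with 4 ties, and miR-296-5p exceeded miR-298-3p in 6 with 2 ties. MiR-298-3p in turn lay above miR-675-3p in 9 of 12 libraries with 2 ties, and the arms of miR-675 were equal in 10.

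**Figure D1:**
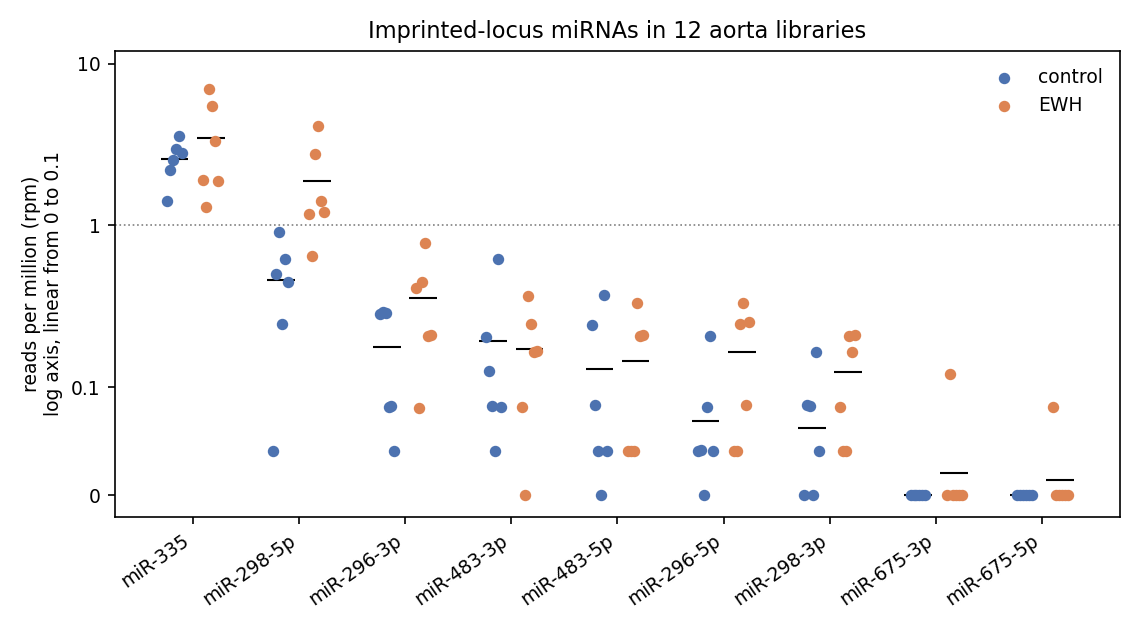
Level in rpm of the 9 imprinted-locus rows (log axis, linear between 0 and 0.1) in 6 control and 6 EWH libraries. Each point is a library, the bars are group means, and the dotted line marks 1 rpm. MiR-335 alone lies above 1 rpm in all 12 libraries, and both arms of miR-675 lie at 0 in all but 1 library each.

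Only miR-335 reached the level set for the main test, which was 1 rpm or more in no fewer than 6 of the 12 libraries and left 303 miRNAs. Limma on log2(rpm + 1), two-sided and called at a Benjamini-Hochberg adjusted p under 0.05, found none of these 303 (0%), and 70 lay under an unadjusted p of 0.05 (23.1%). MiR-335 was not among the 70. On the same scale without a lower limit on level, limma called 0 of the 641 and 116 lay under an unadjusted p of 0.05 (18.1%), with 1 of the 9, miR-298-5p, among them. The low rows were therefore also compared on the whole reads behind the values, with edgeR over all 641, a choice made after seeing the data. EdgeR called 59 of the 641 (9.2%), 49 of them higher in EWH, and 1 of the 9, again miR-298-5p.

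Mean log2 values were higher in EWH for 8 of the 9 rows, where 47.1% of all listed miRNAs were higher, and miR-483-3p was the exception. Without EWH 3 and 4, which stood apart from the other libraries, 6 of the 9 rows were higher, beside 37.4% of all listed miRNAs, and miR-335 and miR-483-5p were then lower in EWH too. Among those 8 are both arms of miR-675, which rest on 5 reads in all. No row had groups that did not overlap, a separation seen in 1.09% of the listed miRNAs.

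MiR-298-5p is from the Gnas region and is known as a repressor of the secretase gene Bace1. Of the 9 rows it had the lowest p in limma and in edgeR, both run with no lower limit on level. Controls 1 to 6 held 0.041, 0.501, 0.905, 0.244, 0.620 and 0.450 rpm, or 1, 12, 22, 6, 15 and 11 reads. EWH 1 to 6 held 1.18, 0.646, 2.77, 4.12, 1.41 and 1.21 rpm, or 29, 16, 68, 100, 34 and 29 reads. EWH 4 and EWH 3 stood highest, control 1 lowest, and 5 of 6 EWH libraries lay above the highest control, while EWH 2 lay within the control range. At least 5 EWH libraries above the highest control occurred in 3.28% of the listed miRNAs. The control mean was 0.460 ± 0.299 rpm and the EWH mean 1.89 ± 1.30 rpm (SD, n = 6 each), a 4.11-fold ratio.

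On the reads, miR-298-5p was higher in EWH by 1.96 log2 (edgeR quasi-likelihood, no lower limit on level, Benjamini-Hochberg adjusted p = 0.042). DESeq2 on the same reads gave 2.004 log2 (SE 0.53, Benjamini-Hochberg adjusted p = 0.0022) in a comparison that called 103 of the listed miRNAs (16.1%). Limma with no lower limit gave 0.90 (95% interval 0.33 to 1.47) on the log2(rpm + 1) scale, which understates the change of low miRNAs, at an unadjusted p of 0.0048 and a Benjamini-Hochberg adjusted p of 0.206. An exact two-sided permutation over 924 splits gave p = 0.0043, or 0.208 after adjustment over the 641.

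The edgeR call for miR-298-5p did not hold with 8 of the 12 libraries left out in turn, namely control 1, 2, 4, 5 or 6 or EWH 3, 4 or 5. Its Benjamini-Hochberg adjusted p in edgeR then ran from 0.053 to 0.108, while the log2 difference stayed between 1.67 and 2.25 over all 12 omissions. In 6 of these 12 fits edgeR called no miRNA at all. Without EWH 3 and 4 together the EWH mean was 1.11 ± 0.328 rpm (SD, n = 4), 2.42-fold the control mean, and edgeR gave 1.32 log2 at a Benjamini-Hochberg adjusted p of 0.302, with 0 of 623 miRNAs called (0%) and 82 at an unadjusted p under 0.05.

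**Figure D2:**
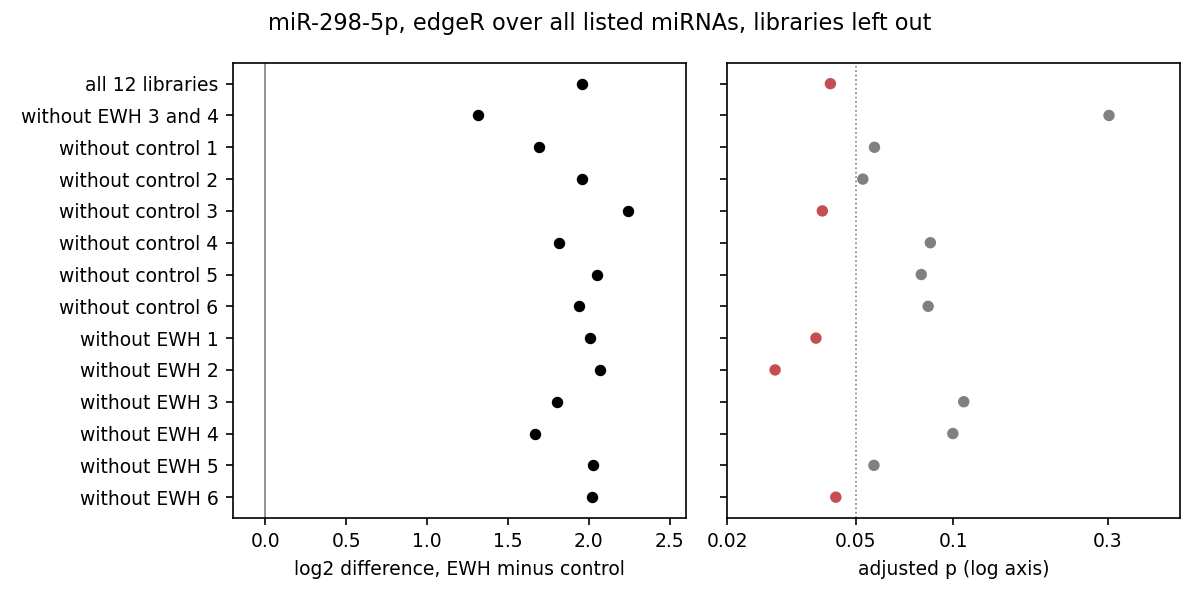
MiR-298-5p compared by edgeR over all listed miRNAs with all 12 libraries, with EWH 3 and 4 left out together, and with single libraries omitted. The left panel gives the log2 difference (EWH minus control) and the right panel the Benjamini-Hochberg adjusted p on a log axis, with points under 0.05 in red. The difference stays above 0 throughout, and the adjusted p crosses 0.05 with most omissions.

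EWH 3 and 4 also stood apart in the whole profile, at 11.97 and 16.2 on the first principal component of the 303 miRNAs (46.3% of the variance), where the other libraries lay between -7.94 and 4.94. In bulk tissue, a change in the share of a cell type cannot be told apart from a change in RNA per cell. The summed level of 13 listed neuron and glia rows was 82.6 to 206 rpm in controls and 124 to 1139 rpm in EWH, with EWH 4 and EWH 3 (875 rpm) highest and no row at 0 throughout. MiR-9a-5p and the 5p and 3p arms of miR-338 were the most abundant of them. Their control means were 64.2, 34.7 and 27.5 rpm and their EWH means 250, 119 and 90.7 rpm. Only 6 of the 13 rows were tested. Of these, 5 had a higher mean log2 in EWH and 1, miR-219a-1-3p, a lower one (-0.21). The 4 endocrine rows (miR-7a and miR-375) summed to 50.0 to 293 rpm in controls and 50.8 to 508 rpm in EWH. EWH 4 and 3 were again highest. Most of this sum was miR-7a-5p, whose groups overlapped (control range 47.5 to 282 rpm, EWH range 48.4 to 302 rpm). The place of EWH 3 (317 rpm) above control 6 (293 rpm) rested on miR-375-3p. That row supplied 62.0 rpm of the EWH 3 sum and 10.8 rpm of the control 6 sum. In the other cell type lists EWH 3 and 4 were not the 2 highest libraries. Leukocyte rows were highest in control 1 (231 rpm) and erythrocyte rows in EWH 5 (385 rpm). Epithelial and liver rows were highest in control 6 (718 and 1006 rpm). Skeletal and cardiac muscle rows were highest in EWH 3 (1439 rpm), while EWH 4 held 713 rpm. For 78 listed Dlk1-Dio3 rows, the other large imprinted miRNA group, the sums were 95.7 to 258 rpm in controls and 189 to 2063 rpm in EWH, and EWH 3 and 4 were the 2 highest libraries for 53 of them. They were the 2 highest for 3 of the 9 rows described here (miR-335, miR-298-5p and miR-296-3p) and for 18.3% of all listed miRNAs. The part of these cell types and libraries in the miR-298-5p difference was not tested. The smooth muscle rows (miR-143 and miR-145) summed to 331968 to 428677 rpm over the 12 libraries, and the endothelial miR-126a arms to 3290 to 12305 rpm, so markers of the labelled tissue were present in each.

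The second arm of the hairpin was rare. MiR-298-3p held 0 to 4 reads in controls and 1 to 5 reads in EWH, and averaged 0.062 ± 0.063 rpm against 0.124 ± 0.079 rpm (SD over 6 libraries each). It had a Benjamini-Hochberg adjusted p of 0.452 in edgeR with no lower limit. The 5p arm exceeded the 3p arm in 12 of 12 libraries and made up 92.7% of the 370 reads of the hairpin (95% exact binomial interval 89.6% to 95.1%, for counting error only). By group this share was 88.2% of 76 reads in control and 93.9% of 294 reads in EWH. No hairpin described here had both arms at the level of the main arm comparison. That comparison covered 67 hairpins and called 0 by limma (12 at an unadjusted p under 0.05). With no lower limit, limma called 0 of 222 hairpins (41 at an unadjusted p under 0.05). For miR-298 the log2 ratio of 5p over 3p was then higher in EWH by 0.82 (limma unadjusted p = 0.0052, Benjamini-Hochberg adjusted p = 0.179). MiR-298-3p stayed under the 1 rpm added before the logarithm, so this ratio mostly follows the 5p arm.

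The neighbouring hairpin gave reads from both arms, with more from the 3p arm in the pooled reads. MiR-296 is described in endothelial cells as a promoter of vessel growth. It gave 34 reads from the 5p arm and 78 from the 3p arm over the 12 libraries. The 5p share was 30.4% (95% exact binomial interval 22.0% to 39.8%, for counting error only). The 3p arm had more reads than the 5p arm in 8 libraries, fewer in 2 and equal numbers in 2. MiR-296-3p held 7, 7, 7, 2, 2 and 1 reads in controls 1 to 6 and 10, 2, 11, 19, 5 and 5 reads in EWH 1 to 6. EWH 4, 3 and 1 lay above all controls, and the remaining libraries overlapped. The control mean was 0.178 ± 0.121 rpm, the EWH mean was 0.356 ± 0.250 rpm (SD, n = 6 each), and the EWH mean without EWH 3 and 4 was 0.226 rpm. For miR-296-5p these were 0.069 ± 0.072 and 0.165 ± 0.125 rpm (SD, 6 libraries each), at 0 to 5 reads per control and 1 to 8 reads per EWH library. Control 5 held 5 of the 10 control reads of miR-296-5p, and without it the control mean was 0.041 rpm and the edgeR difference with no lower limit 1.80 log2 in place of 1.15 (unadjusted p = 0.027, Benjamini-Hochberg adjusted p = 0.166). The EWH mean of miR-296-5p without EWH 3 and 4 was 0.104 rpm. Neither arm passed edgeR with no lower limit (Benjamini-Hochberg adjusted p = 0.339 for both).

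Summed over both Gnas-region hairpins, controls 1 to 6 held 9, 22, 31, 10, 26 and 14 reads and EWH 1 to 6 held 42, 20, 86, 132, 45 and 45 reads. MiR-298-5p supplied most of these, so the sum repeats its pattern: 5 of 6 EWH libraries lay above the highest control and EWH 2 below it.

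**Figure D3:**
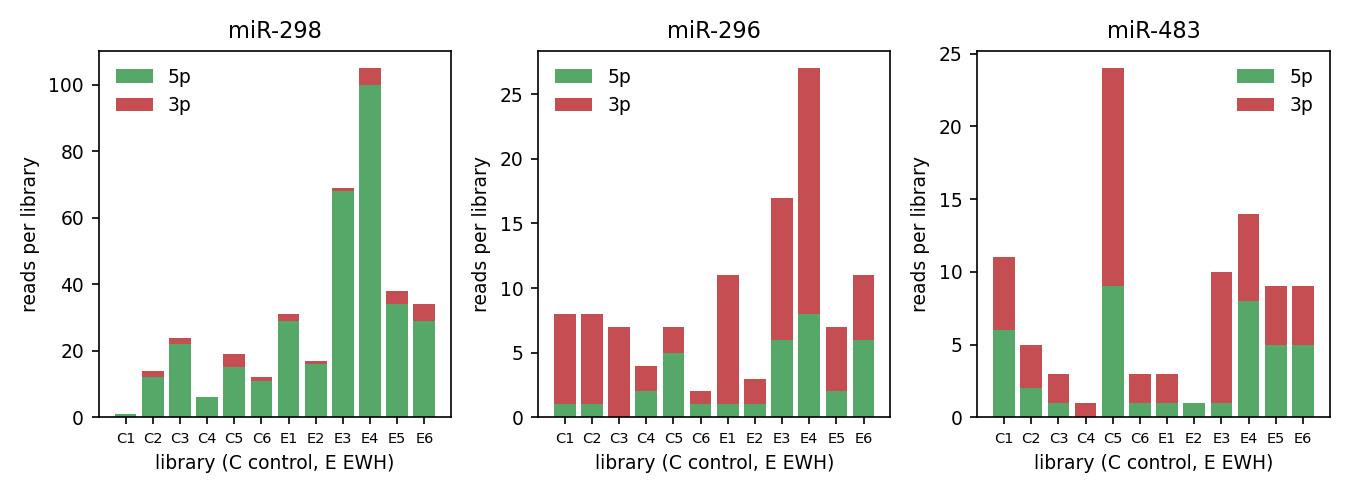
Reads per library from the 5p arm (green) and the 3p arm (red) of the miR-298, miR-296 and miR-483 hairpins, stacked, in controls (C1 to C6) and EWH (E1 to E6), each panel with its own axis. The 5p arm makes up most reads of miR-298 in every library, the 3p arm holds more of miR-296 in 8 of 12 libraries, and miR-483 peaks in control 5.

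MiR-335, from an intron of Mest and known for limiting tumour cell spread, did not pass the main test. Controls 1 to 6 held 1.42, 2.21, 2.55, 2.97, 3.55 and 2.82 rpm, or 35 to 86 reads. EWH 1 to 6 held 1.91, 1.29, 6.92, 5.43, 3.32 and 1.88 rpm, or 32 to 170 reads. EWH 3 and 4 lay above all controls, EWH 2 below all of them, and the other 3 EWH libraries within the control range. The control mean was 2.59 ± 0.725 rpm and the EWH mean 3.46 ± 2.26 rpm (SD, n = 6 each). The log2 difference was 0.19 (SE 0.30, 95% interval -0.46 to 0.84, limma Benjamini-Hochberg adjusted p = 0.734), beside a median of -0.06 over the 303 tested. EdgeR and DESeq2 on the reads of the same 303 gave 0.40 log2 each (Benjamini-Hochberg adjusted p = 0.529 and 0.523), where they called 13.2% and 20.8% of the miRNAs.

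The sign of the miR-335 difference rested on EWH 3 and 4. Without them the EWH mean was 2.10 ± 0.862 rpm (SD, n = 4), below that of control, and the limma difference was -0.22 (Benjamini-Hochberg adjusted p = 0.592). The 26 tested Dlk1-Dio3 miRNAs, another imprinted group, had a median log2 difference of 1.22, with all 26 means higher in EWH. Limma called 0 of the 26 and edgeR 19, all higher in EWH. Over all 303 tested, 121 were higher in EWH, limma called 0, and edgeR called 34 higher and 6 lower. Leaving out control 1, 4, 5 or 6 or EWH 3 or 4 left edgeR with 0 calls over all tested miRNAs, at 68 to 85 with an unadjusted p under 0.05. The difference between the Dlk1-Dio3 miRNAs and miR-335 was not tested.

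**Figure D4:**
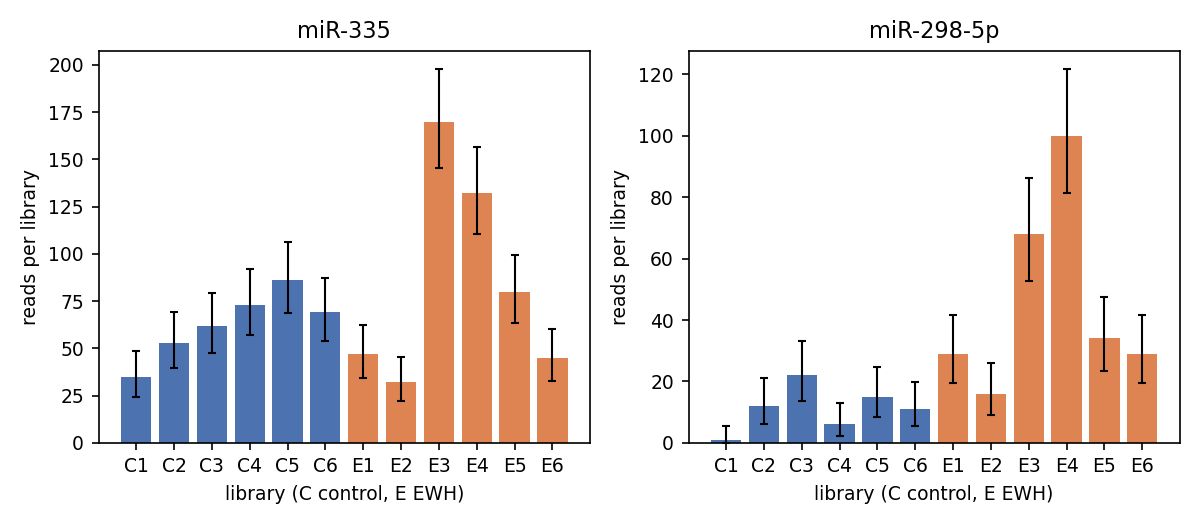
Reads per library of miR-335 and miR-298-5p in controls (C1 to C6, blue) and EWH (E1 to E6, orange). Error bars are exact 95% Poisson intervals, which cover counting error only. E3 and E4 are highest in both panels, at 170 and 132 reads for miR-335 and 68 and 100 reads for miR-298-5p.

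The 3 tested miRNAs of other hairpins whose log2 levels followed miR-335 most closely over the 12 libraries were miR-375-3p, known from pancreatic islets and other endocrine cells, miR-330-3p, and miR-494-3p of the Dlk1-Dio3 region. Pearson's r was 0.88, 0.86 and 0.84, and Spearman's rho 0.83, 0.77 and 0.72. Without EWH 3 and 4, the libraries farthest from the median of miR-335, r was 0.74, 0.68 and 0.51. These are the highest values among the tested miRNAs, so no p is given, and the values of a library share its total. MiR-375-3p ranged from 0.162 to 10.8 rpm in controls and from 2.26 to 206 rpm in EWH, with EWH 4 and EWH 3 (62.0 rpm) far above the rest. MiR-330-3p varied much less, from 8.03 rpm in EWH 2 to 16.96 rpm in EWH 4.

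**Figure D5:**
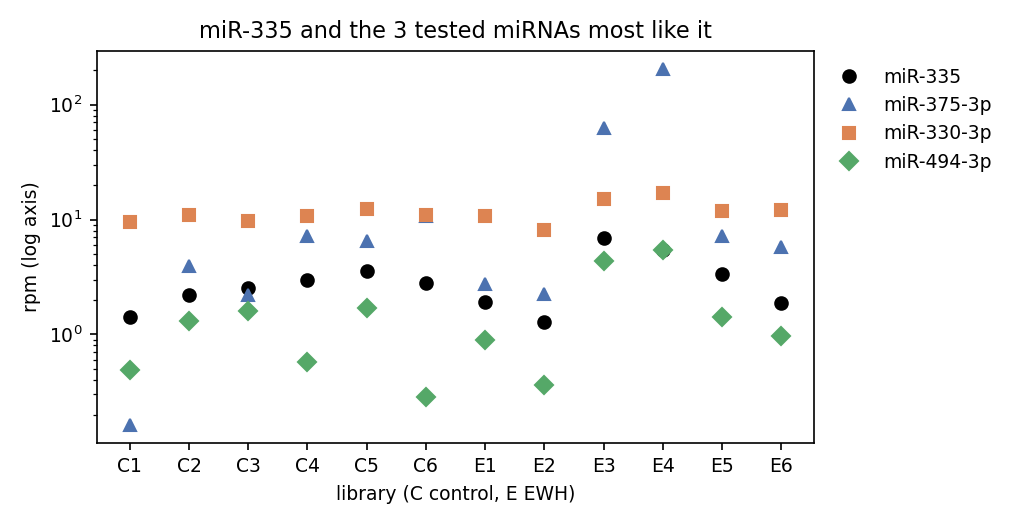
Levels in rpm (log axis) of miR-335 (black circles) and of miR-375-3p, miR-330-3p and miR-494-3p in controls (C1 to C6) and EWH (E1 to E6). E3 and E4 carry the highest level of each of the 4, and miR-375-3p spans the widest range, from 0.162 to 206 rpm.

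MiR-483, from Igf2 and known as a fetal and tumour miRNA of liver and adrenal, gave reads from both arms and no difference that passed a test. MiR-483-3p held 5, 3, 2, 1, 15 and 2 reads in controls 1 to 6 and 2, 0, 9, 6, 4 and 4 reads in EWH 1 to 6. MiR-483-5p held 6, 2, 1, 0, 9 and 1 reads in controls and 1, 1, 1, 8, 5 and 5 reads in EWH. Control 5 was highest of all 12 libraries in both arms, at 0.620 rpm for 3p (15 reads, exact 95% Poisson interval 8.40 to 24.7) and 0.372 rpm for 5p. The groups overlapped widely. In edgeR with no lower limit the log2 difference was -0.20 for 3p and 0.09 for 5p (Benjamini-Hochberg adjusted p = 0.885 and 0.954). Without control 5 edgeR gave 0.60 for 3p and 0.72 for 5p (Benjamini-Hochberg adjusted p = 0.605 and 0.595). The sign of neither arm held over the 12 single omissions, which ran from -0.57 (without EWH 3) to 0.60 for 3p and from -0.24 (without EWH 4) to 0.72 for 5p.

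For miR-483-3p the control mean was 0.192 ± 0.217 rpm and the EWH mean 0.171 ± 0.127 rpm, and for miR-483-5p they were 0.130 ± 0.146 and 0.145 ± 0.122 rpm (SD, 6 libraries each). Leaving out control 5 lowered the 3p control mean to 0.107 rpm, below that of EWH, and the 5p control mean to 0.082 rpm. Pooled over the libraries, the 5p share was 43.0% of 93 reads (95% exact binomial interval 32.8% to 53.7%, for counting error only). The 3p arm had more reads than the 5p arm in 5 of 6 controls and in 2 of 6 EWH libraries. The 5p arm had more in 1 control and in 4 EWH libraries. In control 5 the epithelial rows summed to 406 rpm, the liver rows to 75.1 rpm and the endocrine rows to 156 rpm. Control 6 was the highest control for each, at 718, 1006 and 293 rpm in that order. The cause of the high miR-483 reads in control 5 was not tested.

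MiR-675, cut from H19 itself and known for restraining growth of the placenta, was at or under the detection limit. Its 5p arm had 2 reads in EWH 1 (0.081 rpm) and its 3p arm had 3 reads in EWH 2 (0.121 rpm). Both arms were at 0 in the other libraries, all 6 controls included. With the limit of 3 reads, a count of 0 allows up to 0.121 to 0.126 rpm per library, for counting error only. The exact 95% Poisson interval, used for other rows here, is wider and reaches 3.69 reads at a count of 0. No difference was detectable at this depth. H19 and Igf2 are neighbours, and miR-483 of Igf2 gave at least 1 read in each of the 12 libraries.

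A list of miRNAs from other imprinted domains as known in the mouse (miR-184, the miR-344 family, and miR-297, miR-466, miR-467 and miR-669) had 7 rows here, of which 1, miR-466c-5p, was tested. It had a log2 difference of 0.08 in limma and was called by neither limma nor edgeR. Its control mean was 1.06 ± 0.545 rpm and its EWH mean 1.13 ± 0.307 rpm (SD, n = 6 each). MiR-184, known from neural tissue and the eye, had means of 1.35 ± 2.45 and 0.820 ± 0.659 rpm in that order, with a control range of 0.081 to 6.34 rpm. Control 1 held that highest value, and without it the control mean of miR-184 was 0.347 ± 0.176 rpm (SD, n = 5), below that of EWH. MiR-344b-1-3p, of the Prader-Willi domain, had 0.020 ± 0.022 and 0.336 ± 0.388 rpm (SD over 6 libraries each). It ranged from 0 to 0.041 rpm in controls, on 3 reads in all, and from 0 to 1.03 rpm in EWH. The groups overlapped.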

How the data were processed

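The deposited table lists 641 mature rat miRNAs for 12 libraries, which the authors gave in reads-per-million (RPM) units though named for TPM: dividing each value by its library's smallest step gave whole reads for 100% of values within 0.01 read. Per the labels' protocols, Trizol RNA was ligated to adaptors and inserts of 15 to 35 nt were kept. The build was rn6, per the submitters' processing notes. Not given in the sources used here are aligner, counter, annotation, strand handling and multiple mapping. Listed miRNAs held 76.4% to 80.6% of the totals. Reads are not independent molecules.

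Columns were mapped by sample description and groups by title. MiRNAs at 1 rpm or more in no fewer than 6 libraries entered limma 3.58.1 (trend) on log2(rpm + 1) in R 4.3.3, Benjamini-Hochberg adjusted. EdgeR 4.0.16 (quasi-likelihood) and DESeq2 1.42.0 ran on the recovered reads. The tests were also run on simulated data, with counts drawn independently and no outlying libraries. Such data cannot show how calls depend on libraries like EWH 3 and 4. The rows and lists were chosen with earlier results of these data known. Named were all 9 rows, the 3 tested miRNAs most correlated with each tested row, seed sharers, and the most abundant rows of the lists of other imprinted miRNAs, Dlk1-Dio3 miRNAs and cell type markers, not all of which are printed. Sequences are RefSeq's (GRCr8). Since this assembly differs from rn6, no coordinates are given. No sequence is printed for miR-335. The 30 pairs of libraries within a group all differed by more than sampling noise (chi-square on reads, 119 to 3184 for each degree of freedom).

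Alternatives were other filters, pseudocounts, scalings, variance models, tests, the replicate block and libraries left out. Figures were drawn with Python 3.11.15 and matplotlib 3.10.9.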

Additional observations from a re-analysis of the deposited data

Results flagged for a closer look

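In the 16 of 18 group and miRNA combinations with any spread, 6 libraries each, the highest or lowest library was compared with its nearest neighbour. Dixon's ratio (gap over range) was used at its 95% critical value. For normally distributed values, chance passes it in about 1 in 20. Most rows here hold few reads, so that rate may not hold for them, miR-483-3p included. Control 5 stood apart in miR-483-3p at 0.620 rpm, where the next control held 0.203 rpm. EWH 2 stood apart in miR-675-3p at 0.121 rpm and EWH 1 in miR-675-5p at 0.081 rpm, each with 0 in the other 5 EWH libraries. The miR-675 values rest on 3 and 2 reads, and a lone library with reads among zeros has the highest possible ratio whatever its level, so the chance rate above does not apply to them.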

How the results depend on the processing

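Of the imprinted rows, 1 (miR-298-5p) was called by edgeR and by DESeq2 with no filter on low values, choices made after seeing the data, and 0 to 1 with a library left out. Limma and the exact permutation called 0 of them in each setting run, and at 10 rpm no row remained. Over all miRNAs the count of 0 became 8 after quantile normalization, 1 without EWH 3 and 4 together, 40 with edgeR and 63 with DESeq2 on the same 303, and 59 and 103 with no filter. With a library left out it ran from 0 to 24 in limma, 0 to 45 in edgeR and 0 to 75 in edgeR with no filter. The arm ratio count of 0 became 3 at a pseudocount of 5 and 1 after quantile normalization, and was 0 to 1 with a library left out. The cause was not tested. The miR-335 difference turned to -0.0092 after quantile normalization, -0.0031 without EWH 3 and, without EWH 3 and 4, -0.22 in limma and -0.27 in edgeR with no filter, while single omissions elsewhere, edgeR included, gave up to 0.54.

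The titles number the libraries 1 to 6 in both groups, but the labels do not say that a number pairs them. Same-numbered libraries correlated in their deviations from the group means at -0.50 to 0.31, with 3 of 6 over 0.1, and 1 of 12 libraries matched its own number best. With the replicate block limma called 0 of 303, and edgeR with no filter and the replicate block called 0 of 641, miR-298-5p being at a Benjamini-Hochberg adjusted p of 0.144. With 1 to 22 reads per control for miR-298-5p and at most 19 reads in a library for 7 of the 9 rows, counting error limits what could be detected.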
